A study of Homo sapiens with 4 samples.

Results

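DNA repair genes encode the enzymes that find, cut out and replace damaged or mispaired bases and rejoin broken DNA, and checkpoint genes encode the kinases and sensors that hold the cell cycle while this happens. The genes described here are 57 such genes, listed by pathway: homologous recombination, the Fanconi anaemia pathway, mismatch repair, end joining, break sensing and checkpoint, base excision and single-strand break repair, and nucleotide excision repair. They were taken by name, with earlier results of these data known. Of the 57, 53 had a value of their own among the 18417 gene symbols that the array measured with a single-gene probe set. BRCA2, FANCA and FANCD2 were not analysed here, and RAD51D had only a probe set shared with another gene and was left out.

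The study compared 2 human prostate cancer lines on 4 Affymetrix Human Gene 1.0 ST arrays, 2 for each line. PC-3-BM is labelled as having high metastatic potential: over repeated rounds, cells injected into the heart of nude mice were taken back from their long bones, selected with geneticin, expanded in culture and sorted for GFP. PC-3, the parental line, was first derived from a bone metastasis and is labelled as having poor metastatic potential. Both lines carried firefly luciferase and GFP, PC-3-BM is 1 derivative of PC-3, and the labels speak of growth in immunocompromised mice while the methods describe culture, so how the cells were growing when RNA was taken is not settled. Values are log2 intensities after robust multi-array averaging (RMA), in which a difference of 1 is a 2-fold difference, and every difference is PC-3-BM minus PC-3. A gene was called when its p from limma, adjusted by Benjamini-Hochberg over all 33297 probe sets, was under 0.05. Nothing in the labels says that the arrays of a line came from separate cultures, so these p-values measure the spread between arrays, which may be technical.

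The arrays of a line correlated at 0.996 to 0.997 over all probe sets, against 0.983 to 0.985 between lines, and the array medians were 6.66 and 6.68 in PC-3-BM and 6.72 and 6.69 in PC-3. The epithelial markers KRT8, KRT18 and EPCAM were all lower in PC-3-BM, KRT8 at 8.83 and 9.05 in PC-3-BM against 11.02 and 10.93 in PC-3. Of 6 blood cell markers none was called lower and 1, CD68, was called higher, at 11.43 and 11.32 in PC-3-BM against 10.66 and 10.66 in PC-3. Their summed linear level was 2938 and 2742 in PC-3-BM against 1804 and 1796 in PC-3, but most of it was CD68, and of the other 5 markers 4 had differences below 0, none called. PTPRC and LYZ, which define leukocytes and phagocytes, were on every array dimmer than 5.02, the lower quartile over all values. HBB, of red cells, was near it at 4.92 and 4.84 in PC-3-BM against 5.07 and 4.97 in PC-3. CD14 was above it on every array, at 6.284 and 6.312 in PC-3-BM against 6.405 and 6.315 in PC-3. CD34 was above it too, at 5.09 and 5.31 in PC-3-BM against 5.34 and 5.37 in PC-3. The 4 stromal markers summed to 177.8 and 180 in PC-3-BM against 178.1 and 179.6 in PC-3, with LUM alone called, higher by 0.53 at a level under that quartile. The 3 endothelial markers summed to 188.6 and 189.6 in PC-3-BM against 165.9 and 169.4 in PC-3, with PECAM1 called higher (0.45) and VWF (−0.24) and CDH5 (−0.06) not called. The part of these markers in the results below was not tested.

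Homologous recombination copies a broken stretch from the sister chromatid and works mainly in S and G2 phase, whereas end joining ligates broken ends at any phase. The Fanconi anaemia proteins recognise and unhook crosslinks between DNA strands and hand the break to recombination. Excision pathways act on 1 strand: base excision removes small base lesions, nucleotide excision removes bulky ones, and mismatch repair corrects errors of replication. Many of these genes are transcribed at their highest level as cells enter S phase, and defects in recombination genes are known in advanced prostate cancer.

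Of the 53 measured genes, 26 were lower in PC-3-BM, 3 were higher and 24 were not called. The lower calls were 49.1% of the genes, against 11.6% of all probe sets and 19.6% of the 12274 genes whose mean level lay within the range of these genes. The higher calls were 5.66%, against 11.6% of all probe sets and 19.5% of the genes in that range. Since the list was chosen with earlier results of these data known, these comparisons are a description. The median difference was −0.35, against −0.05 over the genes in that range and −0.04 over all genes, and the differences ran from −1.22 to 0.75. Both PC-3-BM arrays lay below both PC-3 arrays for 32 genes and above them for 14, while 7 genes overlapped. Among genes of the same range of levels such separation was common, at 44.6% below and 36.2% above, so it is read here only beside the fit. EXO1, CHEK1, PARP1 and XRCC2 were lower by more than 2-fold in PC-3-BM, and no gene was higher by that much. None of the 53 genes passed the study's own thresholds, an adjusted p under 0.001 and an absolute log2 difference above 2. Their smallest limma adjusted p was 0.00276. The count of lower genes was 11 without PC-3-BM array 1, 18 without PC-3-BM array 2, 12 without PC-3 array 1 and 6 without PC-3 array 2. The 6 lower genes without PC-3 array 2 were EXO1, NBN, CHEK1, PARP1, UNG and OGG1, and these were called in every setting tried. In bulk RNA, fewer cells that express a gene and less of its RNA per cell cannot be told apart.

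**Figure D1:**
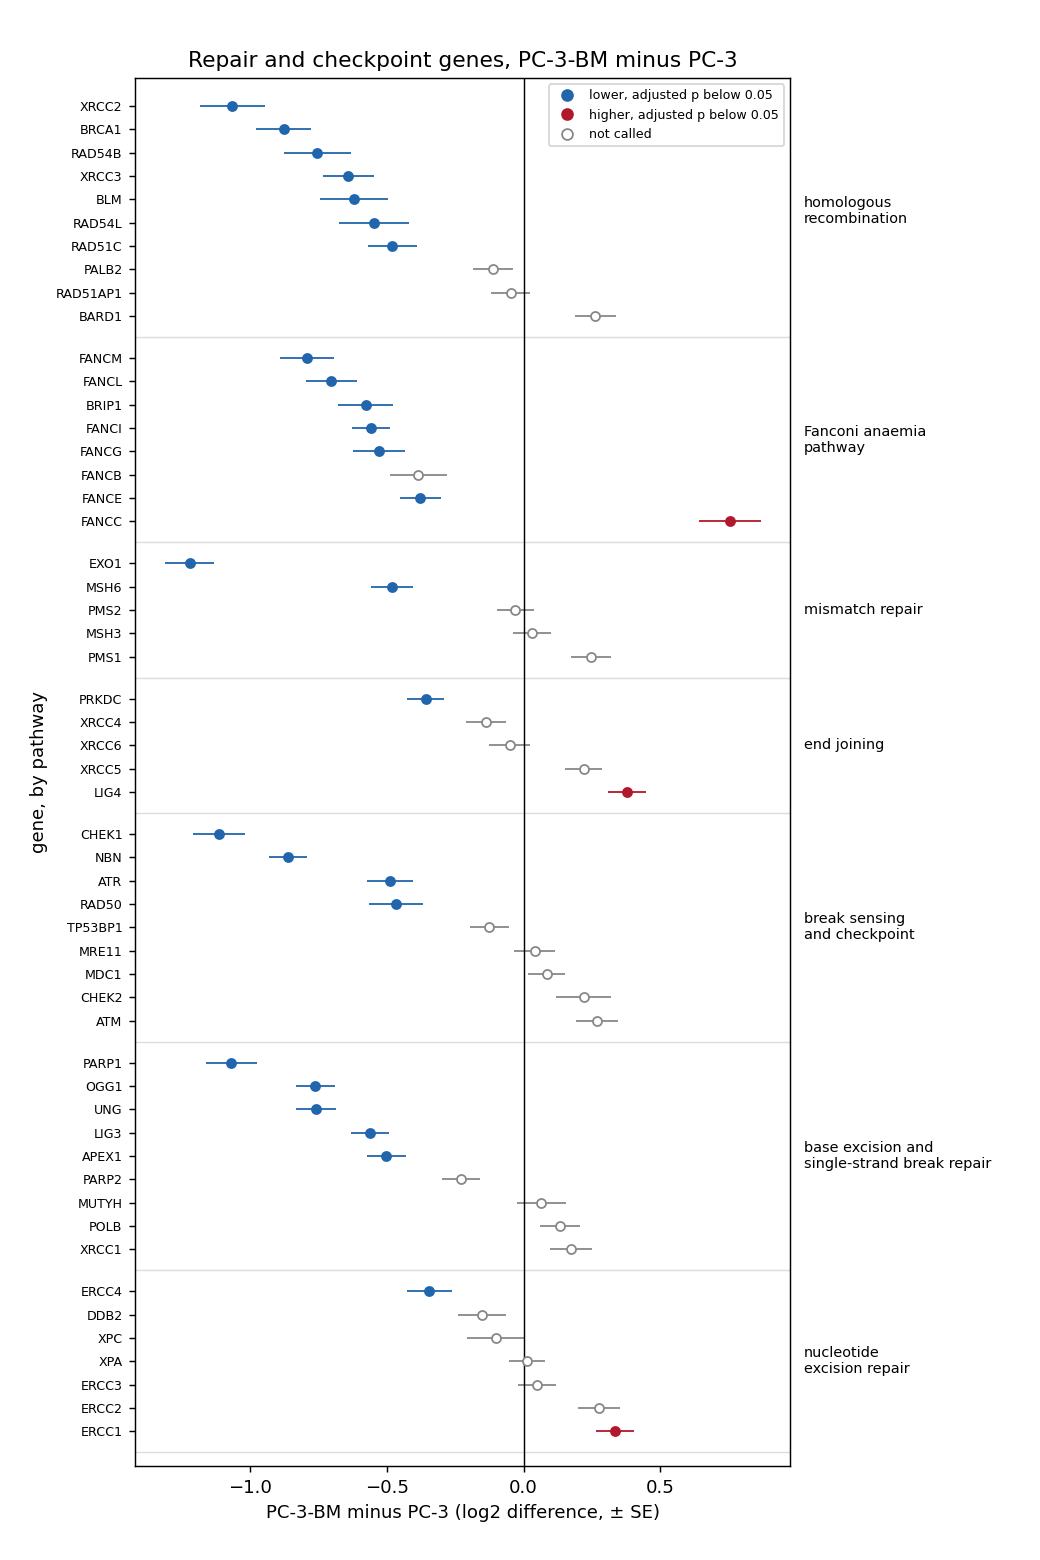
Difference of each measured repair and checkpoint gene, PC-3-BM minus PC-3, on the log2 scale with its standard error, grouped by pathway (2 arrays a line). Filled points were called by limma (blue lower, red higher) and open points were not; most filled points are blue, and FANCC, LIG4 and ERCC1 are the red ones.

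Homologous recombination was among the groups with most lower calls: 7 of its 10 measured genes were lower in PC-3-BM, none was higher, and the median difference was −0.58. The lower share was 70%, and among genes in the same range of levels 19.6% were lower and 19.5% higher. XRCC2, a recombinase paralog that helps the strand exchange filament form on single-stranded DNA, read 8.48 and 8.75 on the PC-3-BM arrays, against 9.61 and 9.75 on the PC-3 arrays. Its difference was −1.06 ± 0.12 (SE, n = 2 arrays a line, as for every difference here; limma adjusted p = 0.00617), or 47.8% of the PC-3 level. The groups were well apart, with the higher PC-3-BM array below the lower PC-3 array by most of the difference. Both PC-3-BM arrays also lay below both PC-3 arrays for 44.6% of genes in the same range of levels.

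BRCA1, the ubiquitin ligase that steers breaks towards recombination, read 6.40 and 6.57 in PC-3-BM against 7.29 and 7.44 in PC-3 (−0.88 ± 0.10, limma adjusted p = 0.00641). Its obligate partner BARD1 was not called and lay on the other side of 0, at 7.43 and 7.46 in PC-3-BM against 7.13 and 7.24 in PC-3 (0.26 ± 0.08, limma adjusted p = 0.0696). Neither gene overlapped between the lines, but such separation was common among genes of the same range of levels (44.6% below and 36.2% above). Whether the members of this pair differed from each other in their change was not tested.

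The DNA translocase gene RAD54B read 6.53 and 6.73 in PC-3-BM against 7.26 and 7.51 in PC-3 (−0.75 ± 0.12, limma adjusted p = 0.0153). XRCC3, another recombinase paralog, read 6.66 and 6.84 in PC-3-BM against 7.44 and 7.34 in PC-3 (−0.64 ± 0.09, limma adjusted p = 0.0116). The remaining lower genes were BLM, the helicase that dissolves crossed strands (−0.62), RAD54L, a motor protein of strand exchange (−0.55), and RAD51C, a further paralog (−0.48). PALB2, a bridging partner of BRCA1, differed by −0.11, and RAD51AP1, which stimulates strand exchange, by −0.05, neither called. XRCC2, XRCC3 and RAD51C, the recombinase paralogs measured here, were thus all lower, while the bridge and the stimulator were not called. The count of 7 was 2 without PC-3-BM array 1, 5 without PC-3-BM array 2, 4 without PC-3 array 1 and 0 without PC-3 array 2, with medians from −0.65 to −0.46.

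Among 13 further recombination genes that were measured, 6 were lower and 1, the helicase gene WRN (0.36), was higher. The lower genes with the largest differences were GEN1, a nuclease that resolves Holliday junctions (−1.05), DNA2, which resects ends (−0.74), and RMI1, a partner of BLM (−0.72).

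In the Fanconi anaemia pathway 6 of 8 measured genes were lower, 1 was higher and FANCB was not called, with a median difference of −0.54. These shares were 75% and 12.5%, against 19.6% lower and 19.5% higher among genes in the same range of levels. FANCM, the helicase-like protein that anchors the core complex at a stalled fork, read 7.11 and 7.33 in PC-3-BM against 8.04 and 7.98 in PC-3 (−0.79 ± 0.10, limma adjusted p = 0.00797). FANCL, the catalytic ubiquitin ligase of the core complex, read 6.28 and 6.37 in PC-3-BM against 6.94 and 7.12 in PC-3 (−0.70 ± 0.09, limma adjusted p = 0.00931). BRIP1, a helicase that binds BRCA1, read 8.23 and 8.29 in PC-3-BM against 8.73 and 8.95 in PC-3 (−0.58 ± 0.10, limma adjusted p = 0.0181). The anchor, the ligase and the helicase each showed both PC-3-BM arrays below both PC-3 arrays, as did 44.6% of genes in the same range of levels. FANCI, a substrate of that ligase, differed by −0.56, and the core subunits FANCG and FANCE by −0.53 and −0.38. FANCB, another core subunit, differed by −0.38 and missed the threshold (limma adjusted p = 0.0599).

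FANCC, also a core subunit, was the exception. It read 7.87 and 7.79 in PC-3-BM against 7.21 and 6.94 in PC-3, a difference of 0.75 ± 0.11 (limma adjusted p = 0.0124) or 1.69-fold. The lowest PC-3-BM array was above the highest PC-3 array, as for 36.2% of genes in the same range of levels. The PC-3 arrays stood apart from each other by more than the PC-3-BM arrays did. This call was lost without either PC-3-BM array and without PC-3 array 2. The lower count of 6 was 2 without PC-3-BM array 1, 4 without PC-3-BM array 2, 2 without PC-3 array 1 and 0 without PC-3 array 2.

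Counted with recombination, the Fanconi genes gave 13 lower genes of 18 (72.2%) and a median of −0.55, against 2 lower genes of 12 (16.7%) and a median of −0.02 for end joining with nucleotide excision repair. This contrast of groups is a description, since the groupings were made with the values known. The 16.7% was near the 19.6% of genes in the same range of levels that were lower. Of 14 further crosslink and translesion genes, 3 were lower (21.4%, also near that 19.6%) and 1 was higher. RAD18, the ligase that modifies PCNA at blocked forks, differed by −0.71, the nuclease gene FAN1 by −0.55, and REV1, a translesion polymerase, by 0.45.

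**Figure D2:**
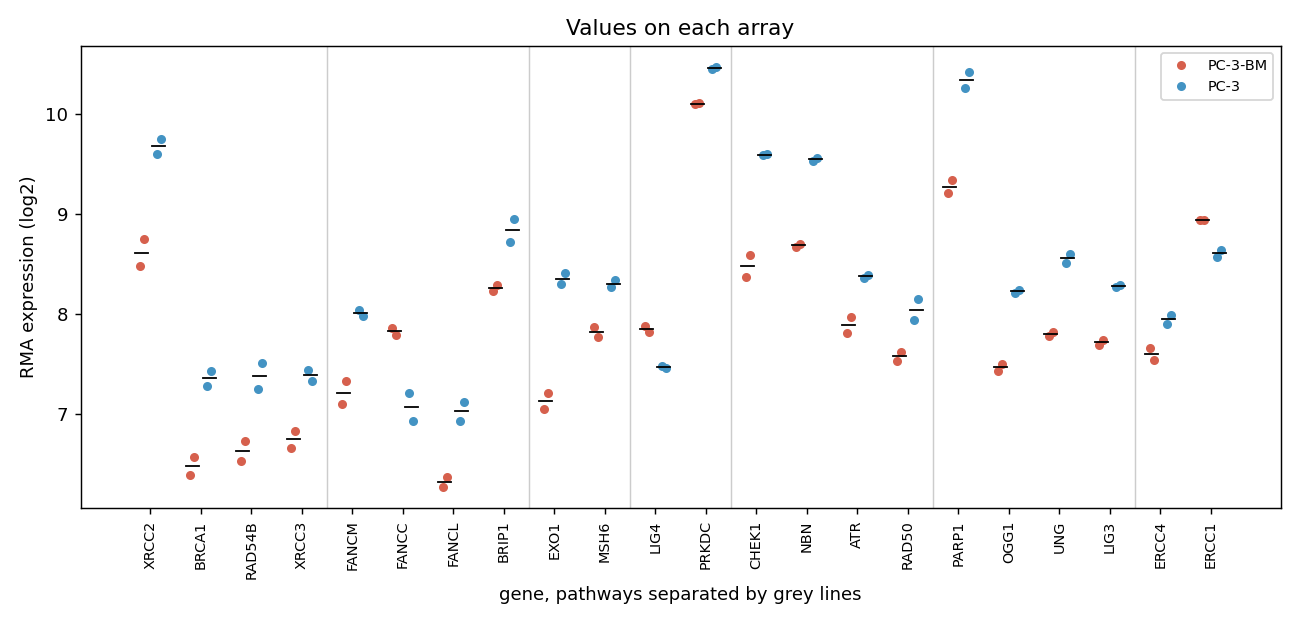
RMA expression (log2, vertical axis) on each array of 22 called genes along the horizontal axis, grouped by pathway, with PC-3-BM (red) left of PC-3 (blue), 1 point an array and a bar at the mean of 2. For FANCC, LIG4 and ERCC1 the PC-3-BM points lie above the PC-3 points, and for the others they lie below.

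Mismatch repair was mixed, with 2 of 5 measured genes lower, none higher and a median of −0.03. The lower share was 40%, and among genes in the same range of levels 19.6% were lower and 19.5% higher. EXO1, the exonuclease that removes the mispaired strand and also resects breaks, had the largest difference of the 53 genes. It read 7.06 and 7.21 in PC-3-BM against 8.30 and 8.41 in PC-3 (−1.22 ± 0.09, limma adjusted p = 0.00276), or 42.9% of the PC-3 level. MSH6, which recognises single base mismatches, read 7.87 and 7.78 in PC-3-BM against 8.27 and 8.34 in PC-3 (−0.48 ± 0.08, limma adjusted p = 0.0144). MSH3, its relative that recognises longer loops, read 8.89 and 8.87 in PC-3-BM against 8.82 and 8.87 in PC-3 and was not called. These 2 recognition subunits therefore stood apart in their calls, although the difference between their changes was not tested. PMS2 differed by −0.03, and since near-identical pseudogene copies share its sequence this value is uncertain, while PMS1 differed by 0.25 (limma adjusted p = 0.0763). EXO1 kept its call without any 1 array, while MSH6 lost it without each of the 4 in turn, so the lower count was then 1 each time.

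The promoters of 4 of the 5 mismatch repair genes carry an E2F word, a sequence by which E2F factors regulate S-phase genes, and they are those of both lower genes and of MSH3 and PMS2, which were not called. The words searched were TTTCCCGC, TTTCGCGC, TTTGCCGC and TTTGGCGC on both strands, from 250 bases before to 50 after the RefSeq start (GRCh38.p14), and a word and its reverse complement can overlap. Among the 47 measured genes with a promoter in the RefSeq table, 8 (17.0%) held a word, against 3.34% of all 27195 promoters and 5.32% of promoters of genes within the same range of levels. The 60-base windows below are shown because they set genes that fell beside genes that did not, with the word in capitals and each window read 5′ to 3′ along the gene's strand.
EXO1: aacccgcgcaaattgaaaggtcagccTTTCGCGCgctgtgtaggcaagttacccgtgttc
MSH6: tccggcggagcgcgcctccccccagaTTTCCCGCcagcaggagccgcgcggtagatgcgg
XRCC2: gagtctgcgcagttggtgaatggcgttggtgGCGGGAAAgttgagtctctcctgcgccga
MSH3: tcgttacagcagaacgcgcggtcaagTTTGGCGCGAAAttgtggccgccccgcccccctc
PMS2: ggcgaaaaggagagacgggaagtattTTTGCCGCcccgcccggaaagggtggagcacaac
FANCC: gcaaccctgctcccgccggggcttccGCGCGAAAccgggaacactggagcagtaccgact

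The windows are chr1:241848182-241848241 (plus strand) for EXO1, chr2:47783122-47783181 (plus) for MSH6 and chr7:152676092-152676151 (minus) for XRCC2, whose word is on the opposite strand to the gene. Those of the genes that were not lower are chr5:80654519-80654578 (plus) for MSH3, chr7:6009116-6009175 (minus) for PMS2 and chr9:95317848-95317907 (minus) for FANCC. In MSH3, 2 words overlap on opposite strands, and FANCC holds a second word outside its window. Of the 8 genes with a word, 3 were lower (EXO1, MSH6 and XRCC2), FANCC was higher, and MSH3, PMS2, XRCC6 and XPC were not called. Of the 39 genes without one, 19 (48.7%) were lower. Lower calls thus were not more frequent among the repair genes that carry the word. Over all genes in the same range of levels, 27.8% of the 521 with a word were lower and 16.1% higher, against 19.3% lower and 20.2% higher of the 9278 without one. The CHR element of late cell cycle genes (TTTGAA or TTCGAA, both strands) lay in 12.8% of the repair promoters, against 16.6% of all promoters and 11.0% of those in the range. A match is only a run of letters, and neither binding nor its part in these differences was measured.

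In end joining 1 of 5 measured genes was lower and 1 was higher, with a median of −0.05. These shares, 20% each, were near the 19.6% lower and 19.5% higher among genes in the same range of levels. PRKDC, the catalytic kinase that holds broken ends, read 10.10 and 10.11 in PC-3-BM against 10.45 and 10.47 in PC-3 (−0.36 ± 0.07, limma adjusted p = 0.0220). LIG4, the ligase of the pathway, read 7.88 and 7.82 in PC-3-BM against 7.49 and 7.47 in PC-3 (0.38 ± 0.07, limma adjusted p = 0.0214), or 1.30-fold. The kinase and the ligase moved in opposite directions, and both calls were lost without any 1 of the 4 arrays. Of the Ku subunits that first bind the end, XRCC5 differed by 0.22 (limma adjusted p = 0.0816) and XRCC6 by −0.05, and the ligase partner XRCC4 by −0.14, none called. Of 7 further end joining genes 2 were lower (28.57%, against that 19.6%). They were the nuclease gene DCLRE1C, known as Artemis (−0.51), and the Ku-binding factor PAXX (−0.47).

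Among the break sensors and checkpoint kinases 4 of 9 were lower and none was higher, with a median of −0.13. The lower share was 44.4%, and among genes in the same range of levels 19.6% were lower and 19.5% higher. CHEK1, the kinase that stops the cycle when replication stalls, read 8.38 and 8.59 in PC-3-BM against 9.59 and 9.60 in PC-3 (−1.11 ± 0.09, limma adjusted p = 0.00362), or 46.3% of the PC-3 level. ATR, the kinase that activates it, read 7.81 and 7.97 in PC-3-BM against 8.36 and 8.40 in PC-3 (−0.49 ± 0.08, limma adjusted p = 0.0181). Both of these kinases of the replication stress arm were therefore lower. In the arm that answers double-strand breaks, ATM read 9.77 and 9.83 in PC-3-BM against 9.58 and 9.48 in PC-3 and was not called (0.27, limma adjusted p = 0.0663). Its target CHEK2 differed by 0.22 (limma adjusted p = 0.194), a value that is uncertain because pseudogene copies share its sequence. ATM was called higher under 5 of the alternatives tried, centring of the arrays on their medians among them, and neither kinase of this arm was called lower under any.

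The complex of MRE11, RAD50 and NBN, which recognises broken ends and recruits ATM, was divided. NBN read 8.68 and 8.70 in PC-3-BM against 9.53 and 9.57 in PC-3 (−0.86 ± 0.07, limma adjusted p = 0.00313), and the arrays of each line were close together. RAD50 read 7.53 and 7.62 in PC-3-BM against 7.94 and 8.15 in PC-3 (−0.47 ± 0.10, limma adjusted p = 0.0315). The nuclease MRE11 overlapped between the lines, at 7.92 and 7.89 in PC-3-BM against 7.92 and 7.81 in PC-3. The chromatin adaptors TP53BP1 (−0.13) and MDC1 (0.08) were not called. CHEK1 and NBN kept their calls without any 1 array, and the lower count of 4 was 2 without PC-3-BM array 1, without PC-3 array 1 or without PC-3 array 2 and 3 without PC-3-BM array 2.

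Of 21 further checkpoint genes 11 were lower (52.4%, against 19.6% of genes in the range of levels of the 53 genes) and none was higher. CDC25A, the phosphatase that CHEK1 restrains, differed by −1.50 ± 0.08 (limma adjusted p = 0.0016), more than any of the 53 genes above. CLSPN, the adaptor through which ATR reaches CHEK1, differed by −1.03, and TIPIN, a fork protection factor, by −0.91. Of the same arm, the clamp and clamp loader genes RAD9A (0.07), RAD1 (−0.08), HUS1 (0.06) and RAD17 (0.00) and the kinase gene WEE1 (0.23), which also restrains the cycle, were not called, and ATRIP, the partner of ATR, was not analysed here. The 20 measured neighbours of CDC25A on its chromosome had a median difference of −0.48, with 12 lower and 1 higher.

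Base excision and single-strand break repair had 5 of 9 genes lower, none higher and a median of −0.50. The lower share was 55.6%, and among genes in the same range of levels 19.6% were lower and 19.5% higher. PARP1, the enzyme that marks broken strands with poly(ADP-ribose) and is the target of PARP inhibitors, read 9.21 and 9.34 in PC-3-BM against 10.26 and 10.42 in PC-3 (−1.07 ± 0.09, limma adjusted p = 0.00380), or 47.7% of the PC-3 level. PARP2, its smaller relative, differed by −0.23 and was not called (limma adjusted p = 0.0803). The 2 polymerases did not overlap between lines, and the difference between their changes was not tested. Such separation was common among genes of the same range of levels (44.6% below and 36.2% above).

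The glycosylases that open the pathway were divided. OGG1, which removes oxidised guanine, read 7.43 and 7.50 in PC-3-BM against 8.21 and 8.25 in PC-3 (−0.76 ± 0.07, limma adjusted p = 0.00421). UNG, which removes uracil, read 7.78 and 7.82 in PC-3-BM against 8.51 and 8.61 in PC-3 (−0.76 ± 0.07, limma adjusted p = 0.00470). MUTYH, which removes adenine paired with oxidised guanine, differed by 0.07 and overlapped between the lines.

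Further along the pathway, APEX1, the endonuclease that cuts at the emptied site, was the brightest of the 53 genes and read 11.37 and 11.44 in PC-3-BM against 11.91 and 11.90 in PC-3 (−0.50 ± 0.07, limma adjusted p = 0.0108). LIG3, the ligase that seals the nick, read 7.69 and 7.74 in PC-3-BM against 8.27 and 8.29 in PC-3 (−0.56 ± 0.07, limma adjusted p = 0.00739). Its scaffold XRCC1 and the gap-filling polymerase gene POLB were not called, at 0.17 and 0.13. Among the listed genes, the lower calls therefore included glycosylase, endonuclease and ligase genes and PARP1, but not the scaffold or the polymerase. PARP1, OGG1 and UNG kept their calls without any 1 array, and the lower count of 5 was 4 without PC-3-BM array 1, 5 without PC-3-BM array 2 and 3 without either PC-3 array. Of 15 further genes of this group 6 were lower (40%, against 19.6% of genes in the range of levels of the 53 genes) and none was higher. The lower genes were led by TDP1, which frees trapped topoisomerase (−0.99), APEX2, a relative of APEX1 (−0.93), and the glycosylase gene NEIL3 (−0.76). The glycosylase genes NEIL2 (−0.46) and MBD4 (−0.29) were lower too. The glycosylase genes NTHL1 (−0.16), NEIL1 (−0.43), MPG (−0.105), SMUG1 (−0.08) and TDG (0.27) were not called, nor was the ligase gene LIG1 (−0.03).

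**Figure D3:**
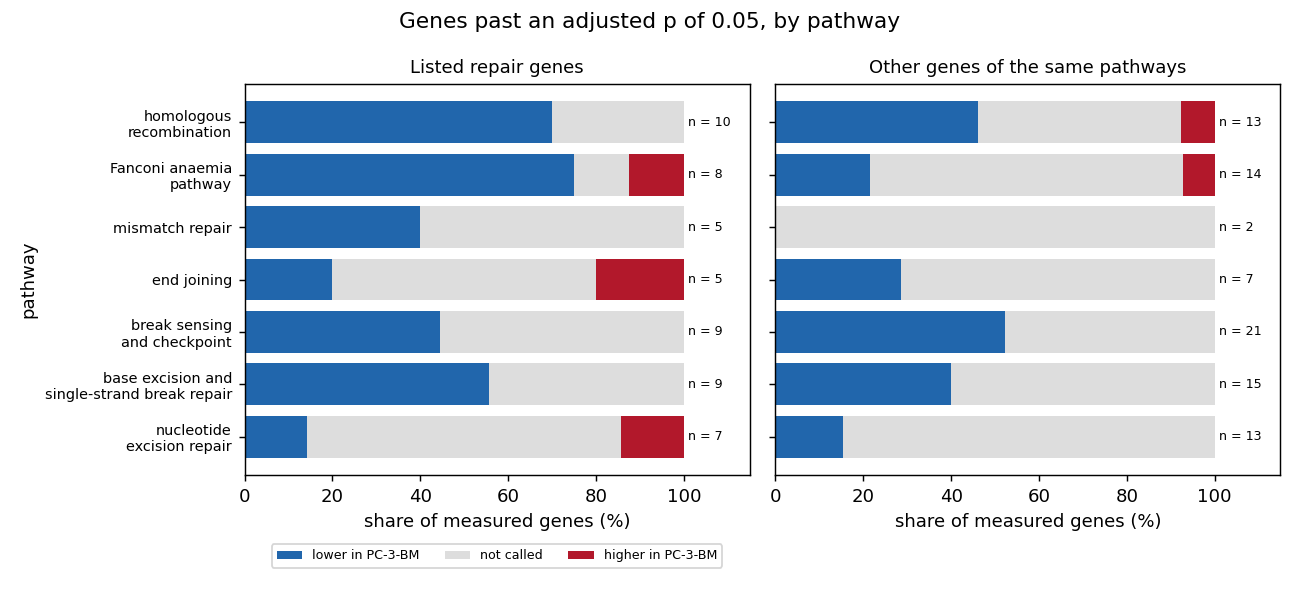
Share of measured genes (%, horizontal axis) called lower in PC-3-BM (blue), not called (grey) or called higher (red) in each pathway, for the 53 listed genes (left) and the further genes of the same pathways (right), with the number of genes beside each bar. On the left, Fanconi anaemia (75% lower) and homologous recombination (70%) have the longest blue bars, and nucleotide excision repair (14.3%) and end joining (20%) the shortest. Among genes in the range of levels of the 53 genes, 19.6% were lower.

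Nucleotide excision repair had a median of 0.01, with 14.3% of genes lower and 14.3% higher. Among genes in the same range of levels these shares were 19.6% and 19.5%. Of its 7 measured genes 1 was lower and 1 was higher. These 2 genes encode the subunits of 1 nuclease, which cuts on the 5′ side of a bulky lesion. ERCC4, the catalytic subunit, read 7.66 and 7.54 in PC-3-BM against 7.91 and 7.99 in PC-3 (−0.34 ± 0.08, limma adjusted p = 0.0414). ERCC1, its partner, read 8.94 and 8.94 in PC-3-BM against 8.57 and 8.64 in PC-3 (0.33 ± 0.07, limma adjusted p = 0.0291), or 1.26-fold. Neither gene overlapped between the lines, a separation common among genes of the same range of levels (44.6% below and 36.2% above). Both were near the threshold, and both calls were lost without any 1 array and with the replicate number as a block. The helicase genes of TFIIH, ERCC2 and ERCC3, differed by 0.27 and 0.05, and the damage recognition genes XPA, XPC and DDB2 by 0.01, −0.10 and −0.15, none called. Of 13 further genes 2 were lower, GTF2H3, a TFIIH subunit (−0.45), and CETN2, a partner of XPC (−0.38).

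Over the 85 further repair genes measured of 93 listed, 30 were lower, 2 were higher and 53 were not called, with a median of −0.12. The lower share of 35.3% was between that of the 53 genes and the 19.6% of genes within their range of levels.

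Because many repair genes are transcribed with the cell cycle, markers of proliferation were read beside the list. Of 16 such genes 11 were lower, none was higher and the median was −0.49. CCNE2, the cyclin of S-phase entry, differed by −1.88, the replicative helicase subunits MCM4 and MCM3 by −1.23 and −0.81, and the polymerase clamp PCNA by −1.15. MKI67, the usual histological mark of cycling cells, read 8.72 and 8.80 in PC-3-BM against 8.56 and 8.65 in PC-3 and was not called (0.16, limma adjusted p = 0.211), and TOP2A, of G2 and mitosis, was not called either (−0.22, limma adjusted p = 0.183). CCNA2, the cyclin of S and G2 phase, was called lower (−0.41), while the replication genes MCM5 (−0.31), CDC6 (−0.30) and MCM6 (0.13) were not called. The list was thus mostly lower beside the lower repair genes, with exceptions at replication and at mitosis, and the part of proliferation in the repair differences was not tested. MCM4 and PRKDC are neighbours that share a promoter region, and their differences were −1.23 and −0.36.

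Genes on the same stretch of chromosome can differ together between a line and its derivative, so the 10 measured genes on each side of every repair gene were read in RefSeq order, as a description without a test. Around the 26 lower genes the neighbours' median difference had a median of −0.04 (range −0.26 to 0.15), equal to the −0.04 over all genes. Around the 3 higher genes it was 0.16 (range 0.02 to 0.24), and around the 24 not called −0.02 (range −0.21 to 0.30). Over all genes the 5th and 95th percentiles of this neighbour median were −0.24 and 0.23. XRCC3 was the lower gene whose neighbours were lowest, with a median of −0.26 and 9 of 20 neighbours lower and none higher, and those of PARP1 had −0.22, 8 lower and none higher. On the other side, the neighbours of LIG4 had a median of 0.24 with 8 higher and 1 lower, and those of PMS1 0.30 with 9 higher and none lower. XRCC3, LIG4 and PMS1 were therefore outside those percentiles, while EXO1, CHEK1, BRCA1 and XRCC2, with neighbour medians of −0.03, −0.13, 0.09 and −0.04, were inside them. Among the further genes, CDC25A lay far outside them, at −0.48. DNA copy number was not measured here.

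**Figure D4:**
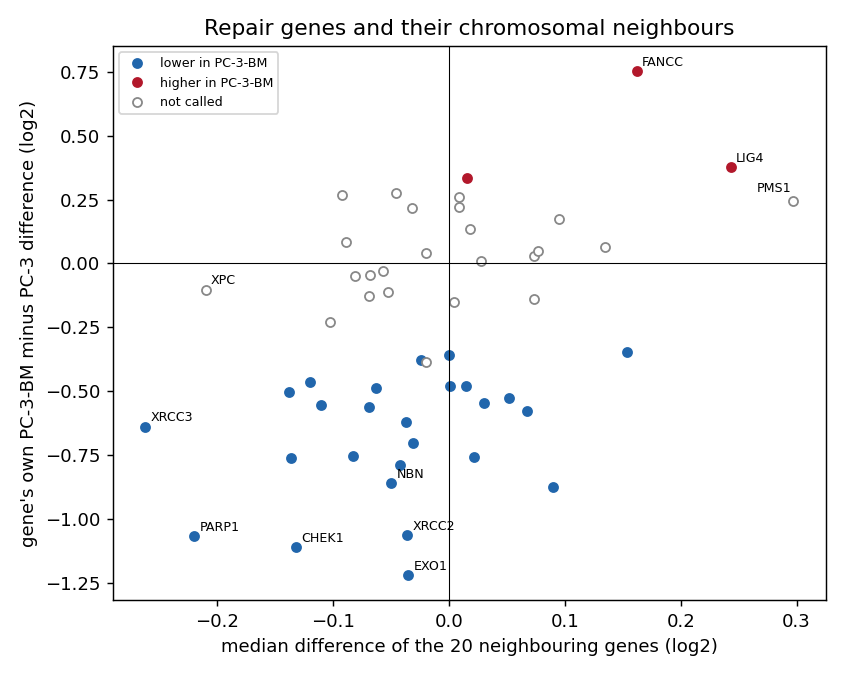
Log2 difference of each measured repair gene (vertical axis, PC-3-BM minus PC-3) against the median difference of the 10 measured genes on each side of it in RefSeq order (horizontal axis). Blue points were called lower, red points higher and open points were not called; the lower genes spread around 0 on the horizontal axis, while XRCC3 lies to the left and LIG4 and PMS1 to the right.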

How the data were processed

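The authors extracted RNA with a miRNeasy kit, labelled it with a WT Plus kit, hybridised 1 Human Gene 1.0 ST array a sample and deposited log2 values made by RMA, which corrects background, forces the arrays to 1 distribution and summarises probes into probe sets. Quantile scaling assumes that most genes keep their level. The submitters' processing notes name R 3.2 and limma 3.24, and the genome build behind the probe sets is not given in the sources used here. Read depth has no counterpart on arrays, and the number of arrays limits the precision.

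The deposited log2 values (2.30 to 14.4) were tested here with limma 3.58.1 in R 4.3.3 (lmFit and eBayes) over all 33297 probe sets, 2 arrays a line, with no filter. The script was first tested on simulated data. With 2 arrays against 2 the smallest exact two-sided permutation p is 0.333, so no permutation test was used. A gene took its brightest probe set with 1 gene symbol. Of the probe sets, 19460 had 1 symbol, 1754 several and 12083 none. RefSeq (GRCh38.p14) gave gene order and promoters, which matched 47 of the 53 measured members.

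The members and all gene lists were chosen with earlier results of these data known. All listed members were described, values on each array were given for up to 4 called members of each pathway with the largest differences and for every higher member, with a few others beside them, members of a complex were set side by side, and up to 3 called genes a pathway were named from the further lists. WRN, a single higher call, and the further checkpoint genes not called were named after their values were seen. So were the further glycosylase genes beyond NEIL3, and LIG1. Alternatives were arrays centred on their medians, a level filter, 1-symbol probe sets, an intensity trend, mean probe sets, a replicate block and leaving out each array.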

Additional observations from a re-analysis of the deposited data

How the results depend on the processing

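Arrays centred on their medians called 29 of the 53 genes as before, with ATM gained and ERCC4 lost, and gave pathway medians of 0.004 for mismatch repair, −0.015 for end joining, −0.091 for break sensing and checkpoint and 0.046 for nucleotide excision repair. The 3 higher genes became 6 with probe sets averaging above 5 alone, 8 with 1-symbol probe sets alone, 7 with an intensity trend and 8 with probe sets averaged per gene. The genes gained came from 7 with adjusted p between 0.05 and 0.1 (BARD1, FANCB, PMS1, XRCC5, ATM, PARP2 and ERCC2), and none of the 29 calls changed direction in any alternative.

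Leaving out 1 array of the 4 gave 6 to 18 lower and 0 to 1 higher genes, and 933 to 1745 lower and 1305 to 2109 higher probe sets, against 3863 and 3854 on 4 arrays. The pathway medians then ran from −0.646 to −0.456 for homologous recombination, −0.575 to −0.467 for Fanconi anaemia, −0.10 to 0.000 for end joining and −0.164 to −0.088 for break sensing and checkpoint. Such a fit has fewer samples, and it assumes that the lone array of a line varies like the other line's. FANCC, LIG4 and ERCC1 lost their calls in most of these fits, BRCA1 and XRCC2 without PC-3 array 2 alone.

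With the replicate block 25 genes were lower and 2 higher, ERCC1 and ERCC4 being lost. Same-numbered arrays did not deviate together over all probe sets (correlation −0.0174). With 2 arrays a line and no batch label, this cannot tell whether they share more than a number.

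Precision is limited by 2 arrays a line. RMA removes any shift common to all genes.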
